A study of Mus musculus with 9 samples.

Results

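The hearts of 3 Col4a3-/- mice were set against those of 3 wild type mice, all 2 months old, on arrays that read transcript signals. The Col4a3-/- genotype removes the alpha3 chain of type IV collagen. Another genotype of the series, Col4a3-/-OPN-/-, which lacks osteopontin as well, also had 3 hearts. These entered the comparison only through the estimate of the spread and the signal limit for testing. Each array carried 1 snap frozen heart, so p-values measure the spread between these hearts, and the labels used here give neither strain nor sex. Of the 33793 probe sets of the array, 23521 carried 1 gene symbol, and the comparison took the 13650 of these whose mean over the 9 arrays exceeded 5.21, the middle value of the whole array. They stood for 13085 of 22180 genes. The labels name a labelling kit made for small RNA, while the probe annotation is that of a whole-transcript mouse gene array, so how the RNA was labelled is uncertain.

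Type IV collagen chains join as trimers into the network of basement membranes. The alpha3, alpha4 and alpha5 chains form the network of the glomerular filter, and their loss causes Alport syndrome, a kidney disease that progresses to renal failure. In the heart, the alpha1 and alpha2 chains make up most of the network around cardiomyocytes, capillaries and the smooth muscle cells of vessel walls. Chronic kidney disease loads the heart and vessels through blood pressure, retained solutes and inflammation.

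The probe set of Col4a3 itself gave log2 signals of 5.07, 5.31 and 5.52 in the wild type hearts and 5.27, 4.96 and 5.19 in the Col4a3-/- hearts. Its mean lay below the limit for testing, and the groups overlapped, so it could not check the labels. The other chains were close between groups. Col4a1 averaged 7.68 ± 0.11 (SD, n = 3) in wild type and 7.65 ± 0.35 in Col4a3-/- hearts, and Col4a2 averaged 7.84 ± 0.11 and 7.78 ± 0.51. The differences of Col4a4, Col4a5 and Col4a6 were 0.01, 0.07 and 0.03 log2 units, and both groups overlapped in each of them. Among 24 tested members of a basement membrane list the median difference was -0.10, and 3 members were lower without overlap, meaning that all 3 values of one group lay beyond all 3 of the other, as did 7.90% of all tested probe sets on the lower side. The median was -0.004 without the first Col4a3-/- heart and 0.04 with Y-linked signal as a covariate. The 3 members were Nid1, which links laminin to collagen, at -0.26 (a second probe set of Nid1 at -0.27 overlapped), the dystroglycan gene Dag1 at -0.22, and the laminin receptor subunit Itga6 at -0.30.

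No probe set passed a limma adjusted p of 0.05, which is 0% of those tested, while 1140, or 8.35%, had an unadjusted p under 0.05. All differences are therefore given as measured values, Col4a3-/- minus wild type on the log2 scale, with the standard error (SE) of the limma fit. Absence of overlap between groups held for 1703 probe sets (12.5%), with 625 (4.58%) higher and 1078 (7.90%) lower in Col4a3-/- hearts. The difference was negative in 55.0% and positive in 45.0% of all tested probe sets, and its median was -0.02. At least 1 log2 unit separated the group means of 16 probe sets on the higher and 34 on the lower side, and 6 and 21 of these were without overlap.

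The Col4a3-/- hearts varied more among themselves than the wild type hearts. Pearson's r over the tested probe sets was 0.984 to 0.985 within wild type and 0.939 to 0.963 within Col4a3-/-. The SD was the larger one in Col4a3-/- for 73.9% of probe sets. The third had 87 probe sets at least 1 log2 unit above all other 5 hearts and 102 below, the second had 36 above, and the first had 6 below. Among the wild type hearts the first had 2 above, the second 8 above and 2 below, and the third 1 below. Y-linked genes averaged 7.19 to 7.36 in the wild type hearts and 7.0 in the second Col4a3-/- heart, but 4.64 and 4.53 in the first and the third. These 2 hearts gave Xist, the RNA of the inactive X chromosome, at 7.59 and 8.50, against 4.55 to 4.74 in wild type. All 3 wild type hearts thus showed the male pattern, and genotype and sex cannot be told apart for hearts 1 and 3, so that only the second Col4a3-/- heart was matched to them. The sex-linked genes are left out below.

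**Figure D1:**
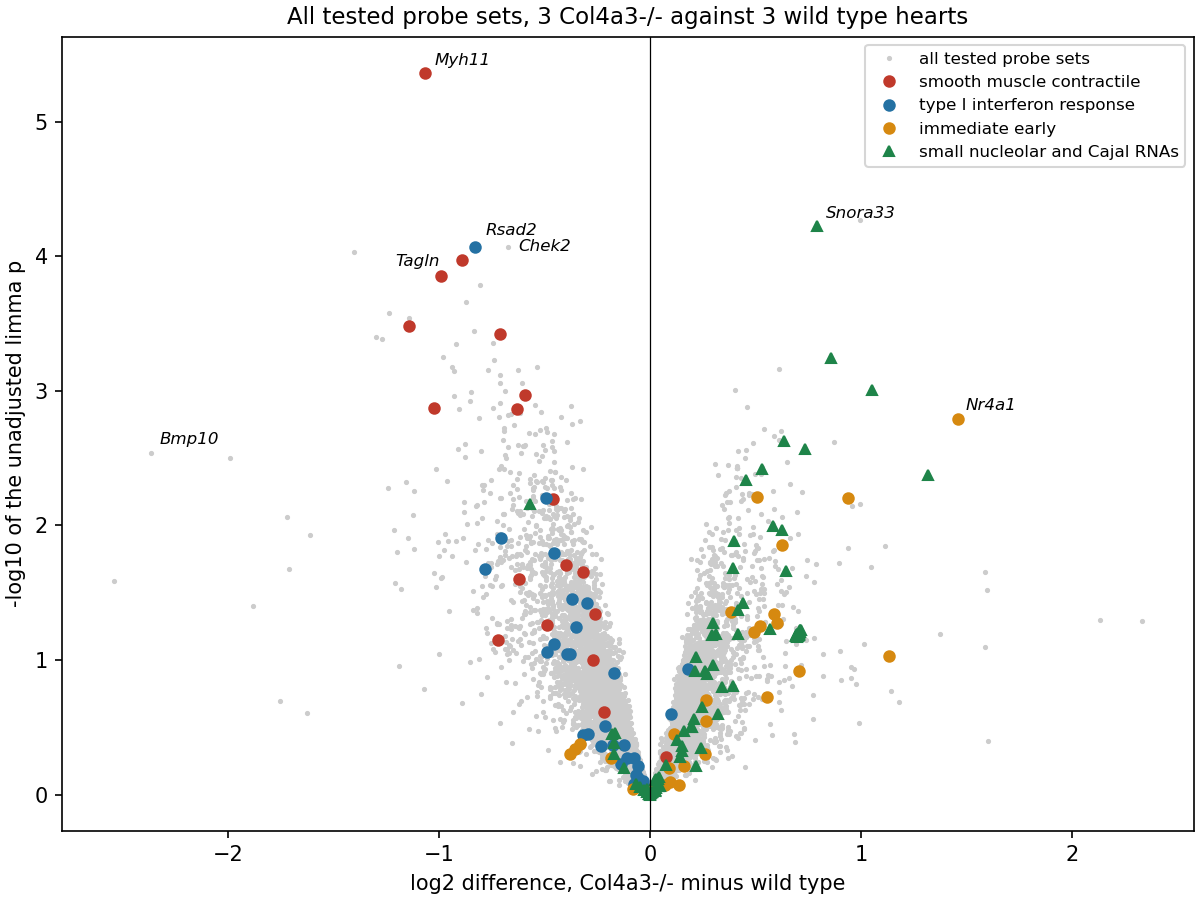
Log2 difference of each tested probe set (Col4a3-/- minus wild type, x axis) against -log10 of its unadjusted limma p (y axis), with 3 gene lists and 1 RNA class in colour. Smooth muscle genes lie on the lower side with Myh11 at the top, and small nucleolar RNAs lie mostly on the higher side.

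Genes of the contractile apparatus of smooth muscle were lower in all Col4a3-/- hearts for most members. Of 19 tested members 18 were lower in Col4a3-/- hearts and 13 were without overlap, against 7.90% of all probe sets. The median difference was -0.59. Myh11, the myosin heavy chain of smooth muscle (probe set 17328368), had the smallest p of the whole comparison. Its log2 signals were 7.83, 8.01 and 7.99 in wild type and 6.90, 7.01 and 6.73 in Col4a3-/- hearts. The groups lay far apart and the difference was -1.07 (SE 0.13, limma adjusted p = 0.0593), a 2.10-fold lower signal that missed the threshold. With Y-linked signal as a covariate the difference of Myh11 was -0.99 (limma adjusted p = 0.221), and over the hearts with Y-linked signal alone it was -0.94.

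Proteins that bind the actin filament of smooth muscle followed. Tagln, which encodes transgelin, gave 7.54, 7.52 and 7.46 in wild type and 6.87, 6.67 and 6.31 in Col4a3-/- hearts, a difference of -0.89 (SE 0.15, limma adjusted p = 0.209). Cnn1, the gene of calponin, gave 7.04, 7.07 and 6.83 against 5.83, 6.05 and 5.64, a difference of -1.14. The actin gene itself, Acta2, gave 11.42, 11.13 and 10.91 against 10.60, 10.28 and 9.50. Neither gene had overlap between groups, and in each of the 3 the third Col4a3-/- heart was the lowest. The tropomyosin gene Tpm2 differed by -0.63, the filament-nucleating leiomodin gene Lmod1 by -0.46, and the smoothelin gene Smtn by -0.62, all without overlap.

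Receptors and channels of smooth muscle were lower too. Itga8 is the alpha8 integrin subunit, which binds nephronectin and osteopontin on mesenchymal cells. Its signals were 6.93, 6.77 and 6.96 in wild type and 6.03, 6.13 and 5.53 in Col4a3-/- hearts, a difference of -0.99 (SE 0.17, limma adjusted p = 0.240). Npnt, the gene of nephronectin, its basement membrane ligand, gave 6.26, 6.44 and 6.15 against 5.44, 5.76 and 5.88. Kcnmb1, the beta subunit that tunes the calcium-activated potassium channel of vessels, gave 6.87, 6.59 and 6.69 against 6.04, 6.08 and 5.91. None of these 3 genes overlapped between groups. Among 12 osteopontin receptor subunits Itga8 alone was without overlap, against 12.5% of all probe sets in either direction. Their median difference was 0.01.

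The smooth muscle group was lower in each Col4a3-/- heart. Its median deviation from the wild type mean was -0.55, -0.37 and -0.78 in hearts 1, 2 and 3, and 17, 15 and 18 of the 19 members lay below all wild type values. For all tested probe sets those shares were 35.0%, 33.1% and 38.7%. Without the third heart the median was -0.33 and 13 members were lower without overlap, against 1832 of 13650 probe sets in that setting. Leaving out a heart cannot lower such a count. In the second heart, which had Y-linked signal like the wild type hearts, the median deviation had the same direction. With Y-linked signal as a covariate the median difference of the list was -0.47, with 18 of 19 members negative. Lower signal in bulk tissue can come from fewer cells of a type or from less RNA per cell, and these cannot be told apart here.

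**Figure D2:**
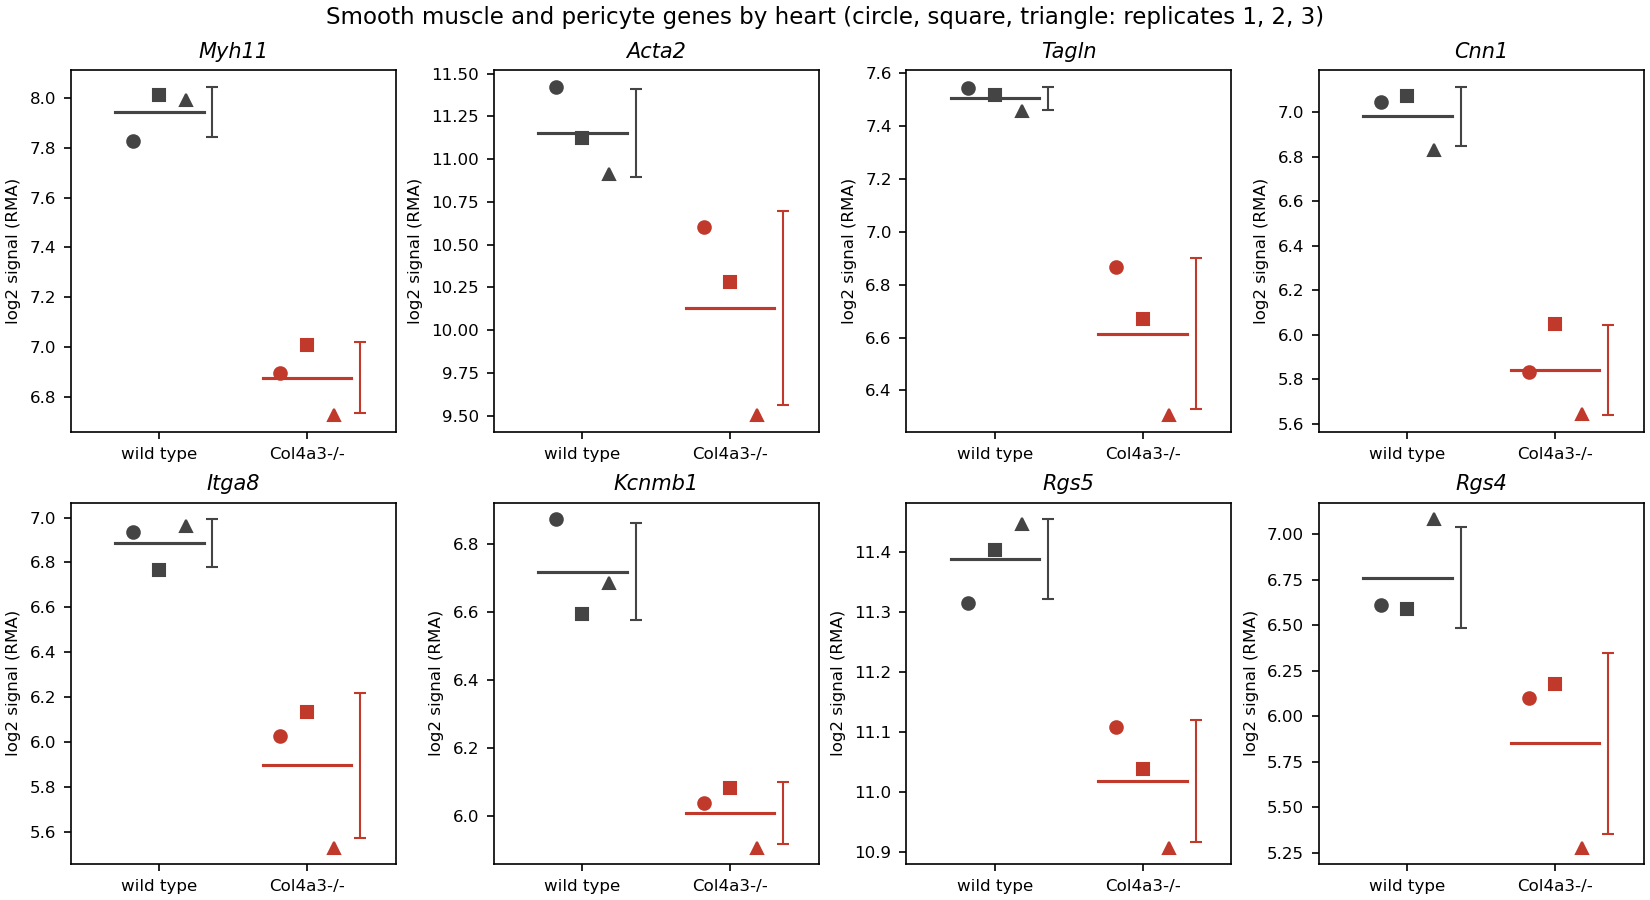
Log2 signal (y axis) of 8 smooth muscle and pericyte genes in 3 wild type (grey) and 3 Col4a3-/- (red) hearts, with the group mean (line) and SD (bar beside it). All Col4a3-/- points lie below all wild type points, and Myh11 averages 7.94 in wild type and 6.88 in Col4a3-/- hearts.

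Pericytes, the mural cells of capillaries, were described by a list of 13 genes. The median difference was -0.36, with 12 members lower and 5 without overlap, against 7.90% of all probe sets. Without the third Col4a3-/- heart it was -0.20. Rgs5, which dampens signals of G protein-coupled receptors, gave 11.32, 11.40 and 11.45 in wild type and 11.11, 11.04 and 10.91 in Col4a3-/- hearts. Rgs4, of the same family, gave 6.61, 6.59 and 7.08 against 6.10, 6.17 and 5.28. Kcnj8, the pore of the ATP-sensitive potassium channel of mural cells, gave 8.30, 8.53 and 8.42 against 8.25, 7.28 and 7.36. Here the first Col4a3-/- heart lay close to wild type, and the other two were lower by about a log2 unit. Pdgfrb, the growth factor receptor that recruits pericytes, differed by -0.36 without overlap, while Cspg4 and Abcc9 overlapped, at 0.09 and -0.02. A second probe set of Rgs5 overlapped, at -0.23.

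Matrix genes of connective tissue were also on the lower side. Small leucine-rich proteoglycans and cartilage-type matrix proteins, which organise collagen fibrils in valves, vessel walls and tendon-like tissue, had a median of -0.55 over 14 members. Of these, 13 were lower and 5 were lower without overlap, against 7.90% of all probe sets. Comp, cartilage oligomeric matrix protein, gave 6.83, 7.22 and 6.78 in wild type and 6.36, 6.26 and 5.68 in Col4a3-/- hearts. Fmod, the fibril-binding proteoglycan fibromodulin, gave 6.98, 7.70 and 7.06 against 6.59, 6.51 and 6.01. Ecm2, Aspn and Chad differed by -1.12, -0.96 and -1.12, again without overlap. This group leaned on the third heart, where its median deviation was -1.25, against -0.31 and -0.42 in the first and second. Without that heart the median was -0.33.

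Among 29 interstitial collagens and matrix genes the median was -0.22, and it turned to 0.03 without the third heart. Without overlap was 1 member, against 12.5% of all probe sets in either direction. This was Mfap4, a protein of elastic fibres, at 7.77, 7.84 and 7.97 against 7.38, 7.09 and 6.40. Col3a1, a fibrillar collagen, gave 8.83, 8.47 and 8.47 in wild type and 8.58, 9.96 and 6.39 in Col4a3-/- hearts. The second heart was thus the highest of the 6 and the third the lowest, so the group means were close. Fibroblast markers had a median of -0.22 over 18 members, with 2 lower without overlap, against 7.90% of all probe sets. The median was -0.01 without the third Col4a3-/- heart and 0.08 over the hearts with Y-linked signal. The markers Dpt, Pdgfra and Tcf21 overlapped, at -0.47, 0.13 and 0.19. The stromelysin gene Mmp3, a matrix protease, lay on the other side. It gave 5.01, 5.29 and 5.11 in wild type and 5.53, 5.70 and 6.02 in Col4a3-/- hearts, a difference of 0.61 (SE 0.13, limma adjusted p = 0.345) without overlap.

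In the TGF-beta pathway, which drives matrix production, the median over 34 genes was -0.06, and 0.07 without the first Col4a3-/- heart. The receptor gene Tgfbr1 was higher without overlap, at 6.68, 6.58 and 7.05 against 7.07, 7.11 and 7.26. Inhbb, the gene of an activin subunit, was higher by 0.48 and Ltbp4, which stores TGF-beta in the matrix, lower by -0.48. The ligand gene Bmp10 had the most negative difference of all genes outside the Y chromosome, and it is a marker of atrial muscle.

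Atrial genes were lowest in the first and the third Col4a3-/- hearts and closer to wild type in the second. Bmp10 gave 9.75, 9.78 and 9.86 in wild type and 5.72, 9.17 and 7.40 in Col4a3-/- hearts, a difference of -2.36 (SE 0.62, limma adjusted p = 0.427). Sln, the atrial inhibitor of the calcium pump, gave 11.36, 11.75 and 11.66 against 9.99, 11.35 and 10.38. Mybphl, a myosin-binding protein of atria, gave 8.62, 9.29 and 8.82 against 6.63, 8.47 and 5.66. All 3 were without overlap although the second heart came within 0.58 log2 units of the lowest wild type value in Bmp10.

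Of 12 atrial genes 10 were lower, with a median of -0.63. Lower without overlap were 5, against 7.90% of all probe sets. The median deviation was -0.76, -0.18 and -0.85 in hearts 1, 2 and 3, so the 2 hearts with low atrial signal were those without Y-linked signal. Over the hearts with Y-linked signal alone the difference of Bmp10 was -0.62. Nppa, the gene of atrial natriuretic peptide, gave 13.09, 13.11 and 13.02 in wild type and 12.35, 12.92 and 12.58 in Col4a3-/- hearts. Without the second heart all 12 atrial genes were lower and 10 were without overlap, against 15.5% of all probe sets in that setting. Under that setting the limma fit called 6 probe sets, namely Mybphl, Ucp1, Myh11, Bmp10, Sln and Tmem163. Below all wild type values lay 11, 6 and 11 of the 12 atrial genes in hearts 1, 2 and 3, and 1, 3 and 1 lay above them. The mean of the 6 atrial markers was 8.70, 9.99 and 8.90 in the Col4a3-/- hearts against 10.21 to 10.41 in wild type, and its part in the other lists was not tested.

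Several genes with small p-values on the lower side were in none of the lists described so far. Slc17a7, a glutamate transporter, gave 8.32, 7.27 and 7.70 in wild type and 6.26, 6.62 and 6.19 in Col4a3-/- hearts, a difference of -1.40 (SE 0.23, limma adjusted p = 0.209). Sbk2, Tmem163 and Trp53i11 differed by -1.14, -1.30 and -1.23, each without overlap. Sbk2 gave 6.12, 6.75 and 6.04 and Tmem163 6.52, 7.61 and 6.86 in the Col4a3-/- hearts. In both the second heart was the nearest to wild type, as in the atrial list. Their part in the atrial signal was not tested. Aqp7, a channel for water and glycerol, gave 8.63, 8.82 and 8.94 against 7.74, 7.98 and 6.88. Mest, an imprinted gene of fetal growth, gave 6.98, 7.05 and 6.88 against 6.32, 6.09 and 5.91. Chek2 encodes a kinase of the DNA damage checkpoint, and its signals were tight in both groups. They were 5.99, 6.17 and 6.18 in wild type and 5.47, 5.45 and 5.41 in Col4a3-/- hearts, a difference of -0.67 (SE 0.11, limma adjusted p = 0.209). It was the only 1 of 13 checkpoint and p53 genes without overlap, against 12.5% of all probe sets in either direction, and their median was -0.05. In the Col4a3-/-OPN-/- hearts, which carry the same Col4a3 allele, Chek2 averaged 5.34 ± 0.17, Mest 6.58 ± 0.26 and Myh11 8.15 ± 0.01 (SD, n = 3).

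Genes induced by type I interferon, the antiviral cytokine, were mostly lower. Of 30 members 28 had a negative difference, against 55.0% of all probe sets, with a median of -0.22. Lower without overlap were 9, against 7.90%. Rsad2, the gene of the antiviral enzyme viperin, gave 6.33, 6.44 and 6.74 in wild type and 5.80, 5.63 and 5.60 in Col4a3-/- hearts, a difference of -0.83 (SE 0.14, limma adjusted p = 0.209). All 3 Col4a3-/- hearts were alike and below wild type. Ifih1, a sensor of viral RNA, gave 6.56, 6.71 and 6.91 against 6.52, 6.29 and 6.0. The transcription factor gene Irf7, which amplifies the response, gave 6.64, 6.74 and 6.83 against 6.60, 6.60 and 5.86, so that 2 of 3 hearts lay just under wild type.

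The interferon group depended on single hearts. The median deviation was -0.16, -0.13 and -0.50 in the 3 Col4a3-/- hearts, while the wild type hearts themselves ranged from -0.14 in the first to 0.18 in the third. Without the third wild type heart the median was -0.13, with 20 of 30 members negative, and without the third Col4a3-/- heart it was -0.10, again with 20. The guanylate-binding proteins and immunity-related GTPases, which interferons also induce, had a median of -0.32 over 10 genes, with 9 negative. Lower without overlap were 3, against 7.90% of all probe sets. Gbp7 gave 6.96, 6.98 and 7.47 in wild type and 6.43, 6.36 and 5.81 in Col4a3-/- hearts. Without the third wild type heart this list's median was -0.12.

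Promoters of interferon-induced genes often hold a short element to which their activators bind. The element searched for was GAAANNGAAA on either strand, the core of the interferon-stimulated response element, in the 250 bases before the transcript start, from RefSeq on GRCm38.p6. It was present in 7 of the 22 list members that had a window, namely Bst2, Ifit1, Ifit3, Isg15, Oas3, Rsad2 and Stat2, and in 2.97% of the 10260 tested genes with one. The windows of Rsad2, which has the smallest p of the list, and of Stat2, a subunit of the factor that binds the element, are shown 5′ to 3′ on the strand of the gene, with the match in capitals. The window of Rsad2 lies at chr12:26456453-26456702 on the minus strand and that of Stat2 at chr10:128270248-128270497 on the plus strand.
Rsad2: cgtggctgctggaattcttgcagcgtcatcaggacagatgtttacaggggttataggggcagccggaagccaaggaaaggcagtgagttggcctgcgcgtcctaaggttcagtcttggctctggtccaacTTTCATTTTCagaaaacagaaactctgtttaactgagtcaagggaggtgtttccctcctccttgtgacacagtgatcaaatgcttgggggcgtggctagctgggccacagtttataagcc
Stat2: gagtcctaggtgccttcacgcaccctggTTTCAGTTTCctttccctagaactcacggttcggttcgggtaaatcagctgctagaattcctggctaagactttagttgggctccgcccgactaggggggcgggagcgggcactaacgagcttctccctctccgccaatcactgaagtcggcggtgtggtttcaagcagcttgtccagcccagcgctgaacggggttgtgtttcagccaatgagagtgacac
Both matches lie on the strand opposite the gene, which is why they read as its reverse complement. The members with the element differed among themselves. Stat2 differed by -0.45, Ifit1 by -0.32, Isg15 by -0.13, Bst2 by -0.23, Ifit3 by -0.07 and Oas3 by 0.18, all with overlap. Rsad2 alone of the 7 was without overlap, against 12.5% of all probe sets in either direction. For smooth muscle genes the CArG box, bound by serum response factor, was searched for only as CC, a run of A or T bases, and GG. It was found in 1 of the 15 list members with a window, Myl9, and in 1.45% of tested genes. Those 15 do not include Myh11 and Tagln. Boxes with another base in the run, or outside the windows, were not searched for, so the other members may hold them.

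Immediate early genes, whose transcription starts within minutes of a stimulus, were mostly higher. Of 29 members 23 had a positive difference, against 45.0% of all probe sets, with a median of 0.26. Higher without overlap were 4, against 4.58%. Nr4a1, an orphan nuclear receptor, gave 8.20, 8.46 and 7.06 in wild type and 8.81, 9.54 and 9.74 in Col4a3-/- hearts, a difference of 1.46 (SE 0.35, limma adjusted p = 0.407). The third wild type heart was low in it by more than a log2 unit. Its relative Nr4a2 gave 5.52, 5.64 and 5.73 against 5.86, 6.10 and 6.45, and Ier2 gave 5.79, 5.5 and 5.81 against 5.87, 6.40 and 6.70. Dusp1, a phosphatase that ends stress kinase signals, gave 9.32, 9.18 and 9.24 against 9.32, 9.75 and 10.14, so that the first Col4a3-/- heart equalled the highest wild type heart to 2 decimals.

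The values were higher in the second and the third hearts. The median deviations were -0.13, 0.56 and 0.48, and without the first Col4a3-/- heart 13 of 29 genes were higher without overlap, against 12.5% of all probe sets in that setting. Without the third wild type heart the median of the list was 0.15. Without the first Col4a3-/- heart Junb, a subunit of the AP-1 factor, gave an adjusted p of 0.0498 in limma. Its signals were 6.72, 6.73 and 7.03 in wild type and 6.98, 8.06 and 8.24 in Col4a3-/- hearts. Rrad, a small GTPase that inhibits calcium channels, was higher in all 3, at 9.62, 9.11 and 9.11 against 9.77, 10.31 and 10.74. Igfbp3, a carrier of insulin-like growth factors, gave 8.13, 8.19 and 7.61 against 8.25, 8.80 and 9.69.

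**Figure D3:**
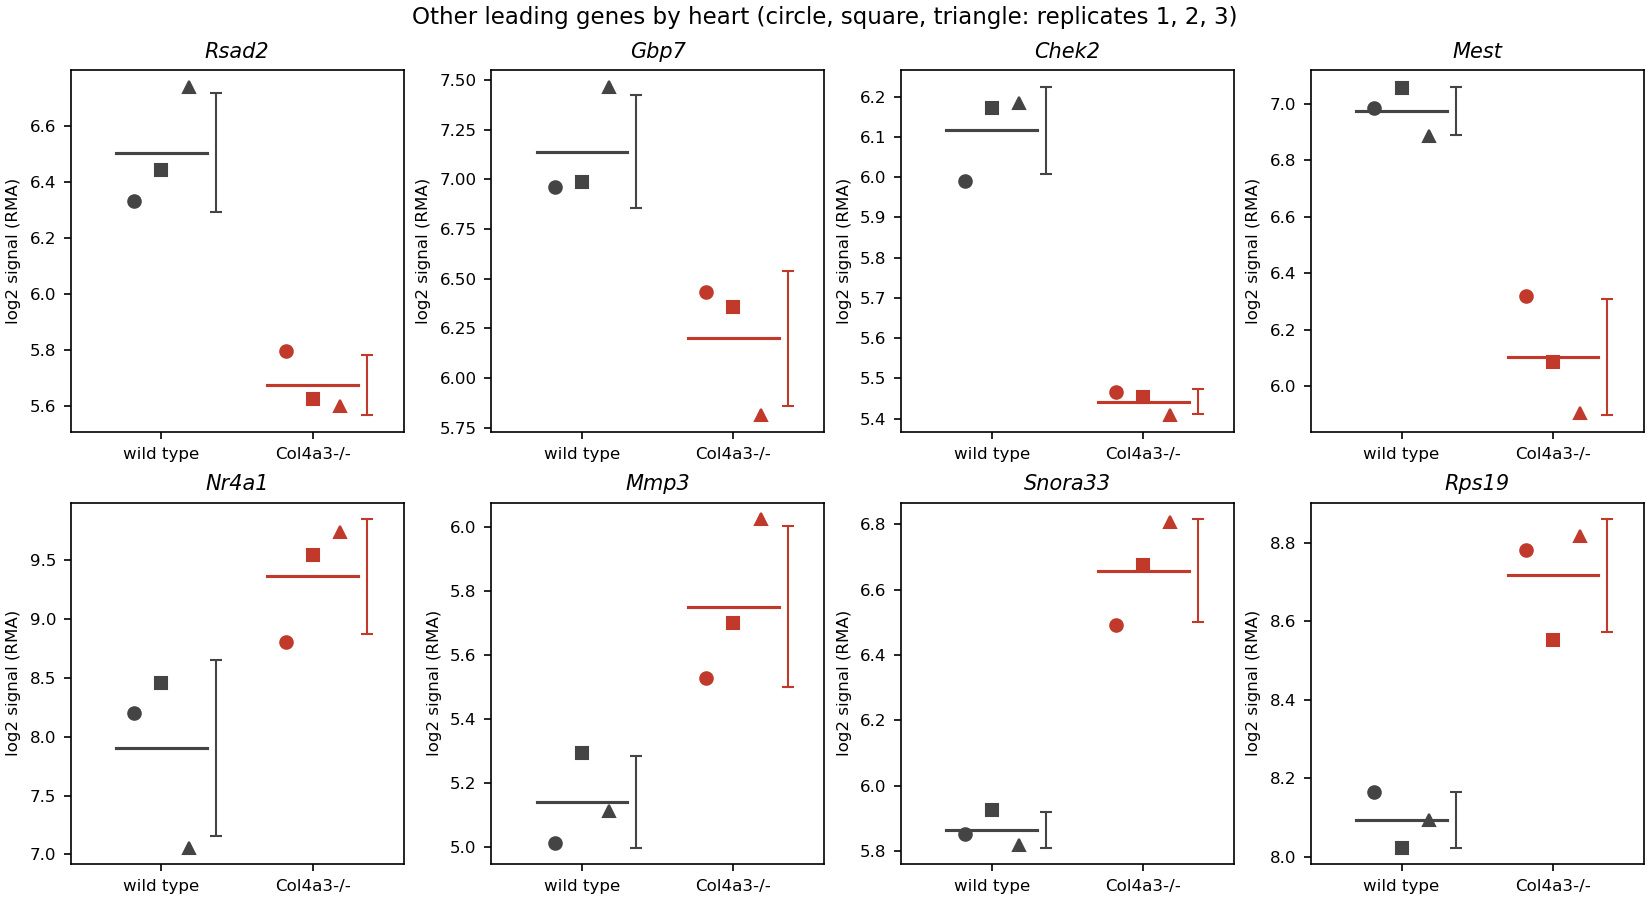
Log2 signal (y axis) of 8 other leading genes in 3 wild type (grey) and 3 Col4a3-/- (red) hearts, with the group mean (line) and SD (bar beside it). In the probe sets drawn, Rsad2, Gbp7, Chek2 and Mest are lower and Nr4a1, Mmp3, Snora33 and Rps19 higher in all 3 Col4a3-/- hearts.

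Acute phase genes and those of activated endothelium had higher values in the same 2 hearts. Of 28 members 26 had a positive difference, with a median of 0.33. Higher without overlap were 2, against 4.58% of all probe sets. The median deviations were -0.08, 0.45 and 0.79. Bcl3, a nuclear regulator of NF-kappaB, gave 6.04, 6.01 and 6.16 in wild type and 6.34, 6.82 and 6.62 in Col4a3-/- hearts. Lrg1, a glycoprotein of activated endothelium, gave 7.84, 7.84 and 7.92 against 8.0, 8.47 and 9.36. Serpina3n, an acute phase protease inhibitor, gave 10.25, 9.14 and 9.78 against 9.72, 11.81 and 12.39. Its first Col4a3-/- value fell inside the wild type range. Without the third heart the median of the list was 0.11. The adhesion receptor gene Sele was at 8.26 in that heart and between 5.30 and 5.53 in the other 5.

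The endothelial identity genes gave another order of hearts. Their median was -0.09 over 34 genes with 5 lower without overlap, against 7.90% of all probe sets. The median deviations were -0.37, 0.03 and -0.01. Cdh5, the cadherin of endothelial junctions, gave 10.02, 10.07 and 10.23 in wild type and 9.32, 9.71 and 10.01 in Col4a3-/- hearts. The transcription factor gene Erg gave 7.93, 7.72 and 7.80 against 7.20, 7.44 and 7.64. The other endothelial markers, Kdr, Pecam1 and Tek, overlapped, at -0.76, -0.06 and 0.02. Without the first Col4a3-/- heart the median of the list was 0.03.

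Macrophage and monocyte genes had a median of 0.21 over 26 members, with 20 positive, 4 higher and 1 lower without overlap. For all probe sets the shares without overlap were 4.58% higher and 7.90% lower. Tyrobp, an adaptor of myeloid receptors, gave 6.34, 6.55 and 6.44 in wild type and 6.86, 6.80 and 6.94 in Col4a3-/- hearts, a difference of 0.42. Msr1, a scavenger receptor, gave 5.21, 5.20 and 5.21 against 5.39, 5.75 and 6.59. Cd14, the co-receptor for bacterial lipopolysaccharide, gave 6.14, 6.23 and 6.27 against 6.50, 6.84 and 8.46. Mertk, the receptor by which resident macrophages clear dead cells, gave 6.46, 6.51 and 6.55 against 6.12, 6.26 and 6.19. The median without the second heart was 0.07. The general markers Cd68, Csf1r and Adgre1 overlapped, at 0.52, -0.05 and -0.16. The chemokine gene Ccl9 gave 8.80, 8.42 and 8.73 against 8.99, 9.28 and 9.25. The neutrophil genes S100a8 and S100a9 lay below the limit for testing.

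Cardiomyocyte genes had small differences that were mostly negative. The median of 22 genes was -0.04, with 16 negative and 2 lower without overlap, against 7.90% of all probe sets. The median deviation was 0.01, 0.01 and -0.16 in hearts 1, 2 and 3. Troponin T (Tnnt2) averaged 12.93 ± 0.02 in wild type and 12.96 ± 0.07 in Col4a3-/- hearts, and Myh6, the myosin heavy chain of adult mouse heart, 12.25 ± 0.06 and 12.23 ± 0.11 (SD, n = 3). The members without overlap were the troponin I gene Tnni3, at -0.09, and the actinin gene Actn2, at -0.14. Titin (Ttn) and the myosin-binding protein gene Mybpc3 overlapped, at -0.37 and -0.30. The brain natriuretic peptide gene Nppb overlapped, at -0.75. Among 20 calcium handling genes the median was -0.16, which became -0.02 without the third Col4a3-/- heart and 0.02 over the hearts with Y-linked signal. Casq2, the calcium store of the sarcoplasmic reticulum, gave 11.20, 11.04 and 11.01 against 10.98, 10.85 and 10.02. Among 21 ion channels the median was -0.21, or -0.10 without either the third Col4a3-/- or the second wild type heart, and Kcnj11, Cacna1g and Kcnd2 differed by -0.60, -0.59 and -0.51 without overlap.

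Genes of energy metabolism had medians near 0, but the hearts went different ways. The median was -0.02 over 33 subunits of respiratory complex I and 0.01 over 39 of complexes II to V. The median deviations of complex I were 0.18, -0.07 and -0.13, with 25 of 33 members above all wild type values in the first heart and 18 below in the third. Genes of the tricarboxylic acid cycle had a median of -0.10, with 21 of 26 negative, and it was -0.01 without the third heart. Lower without overlap was 1, against 7.90% of all probe sets. Fatty acid oxidation genes showed a median difference of -0.11, with 20 of 30 negative. Lower without overlap were 5, against 7.90% of all probe sets. Acadvl, which starts the oxidation of long chains, gave 10.38, 10.36 and 10.36 in wild type and 10.18, 10.14 and 10.17 in Col4a3-/- hearts, a small difference of -0.20 that was alike in all 3. The subunits of the trifunctional protein, Hadha and Hadhb, differed by -0.15 and -0.31. Pfkm, the muscle form of the enzyme that commits glucose to glycolysis, gave 10.66, 10.71 and 10.63 against 10.46, 10.29 and 9.92.

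Small nucleolar RNAs guide the modification of ribosomal RNA and are cut from the introns of host genes. Of 88 tested small nucleolar and Cajal body RNAs 73 had a positive difference and 16 were higher without overlap, which is 18.2% against 4.58% of all probe sets. The median was 0.22. The probe sets include 15 of 1 gene, Gm26504, with nearly the same values, all highest in the third Col4a3-/- heart. With 1 probe set per gene 58 of 73 were positive and 15 were higher without overlap, with a median of 0.15 and median deviations of 0.34, -0.13 and 0.32 in hearts 1, 2 and 3. Snora33 gave 5.85, 5.93 and 5.82 in wild type and 6.49, 6.68 and 6.81 in Col4a3-/- hearts, a difference of 0.79 (SE 0.13, limma adjusted p = 0.209). A second probe set of Snora33 with signals above 12 overlapped, at 0.03. Snord118 gave 6.28, 6.36 and 6.09 against 6.80, 7.51 and 6.99, and Snora75 gave 7.05, 7.38 and 6.71 against 9.08, 7.40 and 8.61. Only Snord123 was lower without overlap, at -0.57, where 7.90% of all probe sets were.

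The 2 structural classes of these RNAs differed in their values. Those with H/ACA names, which guide pseudouridylation, had a median of 0.37 over 26 members. Higher without overlap were 12, against 4.58% of all probe sets. Those with C/D names, which guide methylation, had a median of 0.04 over 42 members. Without overlap 3 were higher and 1 lower, against 4.58% and 7.90% of all probe sets. In the second Col4a3-/- heart the C/D median deviation was -0.31, against 0.33 and 0.23 in the first and the third. One probe set of Nop56 (17376272), a gene whose introns hold several such RNAs and whose protein is a core part of C/D particles, gave 6.67, 6.66 and 6.42 in wild type and 7.57, 7.47 and 7.69 in Col4a3-/- hearts. Its difference was 1.0 (SE 0.16, limma adjusted p = 0.209), while the other 2 probe sets of the gene gave -0.13 and 0.03 with overlap.

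Cytosolic ribosomal protein genes, like the small nucleolar RNAs, had their lowest median deviation in the second Col4a3-/- heart. Of 47 tested probe sets 42 were positive and 13 were higher without overlap, against 4.58% of all probe sets. The median was 0.20, with median deviations of 0.22, 0.01 and 0.33. The small nucleolar RNAs had 0.33, -0.03 and 0.38 over all their probe sets. With 1 probe set per gene they had 0.34, -0.13 and 0.32, so the order of the first and the third heart was not shared. Rps19 gave 8.17, 8.02 and 8.09 in wild type and 8.78, 8.55 and 8.82 in Col4a3-/- hearts. Rpl7 gave 9.32, 9.21 and 9.32 against 9.67, 9.71 and 9.97. Without the second heart 34 of 47 were higher without overlap, against 10.97% of all probe sets in that setting. Without the third 13 were, against 8.30%, with a median of 0.12. Ribosomal protein genes have many processed copies in the genome that can share probes, so single members are uncertain. The mitochondrial ribosomal proteins had a median of -0.03 over 76 probe sets.

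Probe sets on microRNA precursors, of which 107 were tested, had a median of 0.10, with 79 positive. Without overlap 11 were higher and 2 lower, against 4.58% and 7.90% of all probe sets. Whether these probe sets read the hairpin, its host transcript or the mature strand is uncertain, because the labelling is. Mir505 gave 5.22, 5.04 and 5.31 in wild type and 5.35, 6.01 and 6.21 in Col4a3-/- hearts. Mir92b gave 6.10, 6.10 and 6.04 against 6.86, 6.32 and 6.44, and Mir5123 gave 5.11, 5.45 and 5.54 against 5.74, 7.40 and 6.29. Mir5099 lay on the other side, at -0.66 without overlap. Of the 13 without overlap 8 had a mature sequence in RefSeq (GRCm38.p6), and those of the 3 with the largest positive differences are shown 5′ to 3′ with the seed, bases 2 to 8, in capitals. Their seeds differ from each other.
Mir505, 3p strand: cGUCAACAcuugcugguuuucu
Mir92b, 3p strand: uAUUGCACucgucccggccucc
Mir5123: uGUAGAUCcauaugccauggugug

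Markers of other tissues set the single hearts apart. Scgb1a1, the secretoglobin of airway club cells, was at 12.21 in the second Col4a3-/- heart and between 4.54 and 6.10 in the other 5. All 4 airway markers were highest in that heart, and their mean was 8.50 there against 5.26 to 5.80 elsewhere. Ucp1, the uncoupling protein of brown fat, gave 8.29, 9.20 and 8.65 in wild type and 4.79, 11.06 and 5.03 in Col4a3-/- hearts. It was thus lowest in the first and the third and highest in the second. Alb, the albumin gene of liver, was at 10.54 in the third heart and between 5.16 and 6.52 in the other 5. The first heart stood apart through low values, such as those of the transcription factor gene Zbtb16, at 8.32 against 10.18 to 10.32.

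These tissue markers moved with some of the gene groups above. Atrial genes and Ucp1 were both lowest in the first and the third heart, while in the second Ucp1 lay above wild type and the atrial median below it. Cidea, the other brown fat marker, gave 8.33, 8.71 and 8.51 in wild type and 8.39, 9.84 and 8.62 in Col4a3-/- hearts, so it was high in the second and within the wild type range in the other two. The smooth muscle genes were lower in all 3. The part of airway, fat and liver signal in the macrophage and acute phase groups was not tested. Skeletal muscle markers averaged 5.0 to 5.23 in all 6 hearts, and the neutrophil markers 4.75 to 4.97.

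**Figure D4:**
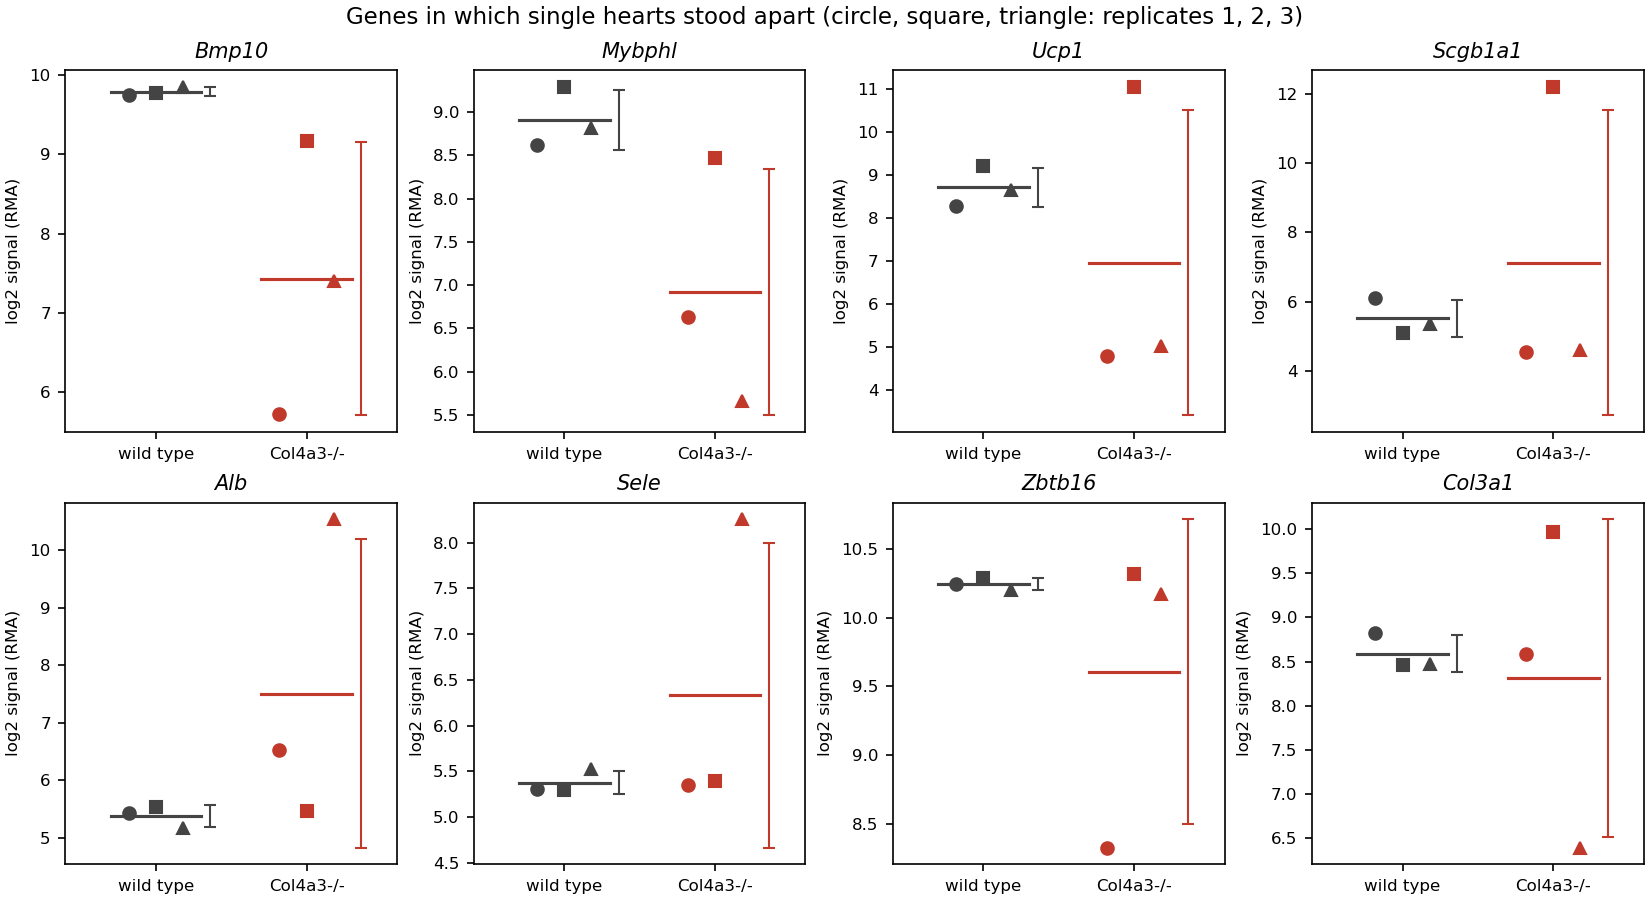
Log2 signal (y axis) of 8 genes in which single hearts stood apart, in 3 wild type (grey) and 3 Col4a3-/- (red) hearts, with the group mean (line) and SD (bar beside it). The second Col4a3-/- heart (square) is high in Ucp1 and Scgb1a1, the third (triangle) in Alb and Sele, and the first (circle) is low in Bmp10 and Zbtb16.

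Wild type hearts also differed from each other in a few genes, and this touched the comparison. Rps13 gave 4.65, 7.77 and 7.56 in wild type and 4.95, 4.93 and 4.98 in Col4a3-/- hearts, and without the first wild type heart it was called with a difference of -2.72. Ogdhl, an enzyme like that of the citric acid cycle, gave 5.06, 7.45 and 7.14 against 4.82, 4.58 and 5.09. F830016B08Rik, an immunity-related GTPase gene, gave 5.74, 7.68 and 7.40 against 5.58, 5.71 and 4.70. In all 3 the first wild type heart lay near the Col4a3-/- hearts and the other two well above. Slc6a16 was at 8.32 in the first wild type heart and between 4.71 and 4.96 in the other 5. Rps13 was named after its values were seen.

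Some of the groups can be ordered by how alike the 3 Col4a3-/- hearts were. The smooth muscle, pericyte, proteoglycan and interferon lists had median deviations below 0 in all 3 hearts. The atrial list did too, with the second heart closest to wild type. Other lists were also below 0 in all 3, so the trait is not particular to these. Among them were guanylate-binding genes at -0.29, -0.07 and -0.62 and heat shock genes at -0.13, -0.12 and -0.12. Fatty acid oxidation genes stood at -0.11, -0.10 and -0.09, and all tested probe sets at -0.03, -0.02 and -0.02. The immediate early, acute phase and glucocorticoid-induced lists were below 0 in the first heart and clearly above it in the third, the last of them at -0.39, 0.08 and 0.79, with a median difference of 0.14 that was -0.12 without the third heart. Over the 1703 probe sets without overlap the third heart was the farthest from the wild type mean in 54.9%, the first in 25.7% and the second in 19.4%.

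**Figure D5:**
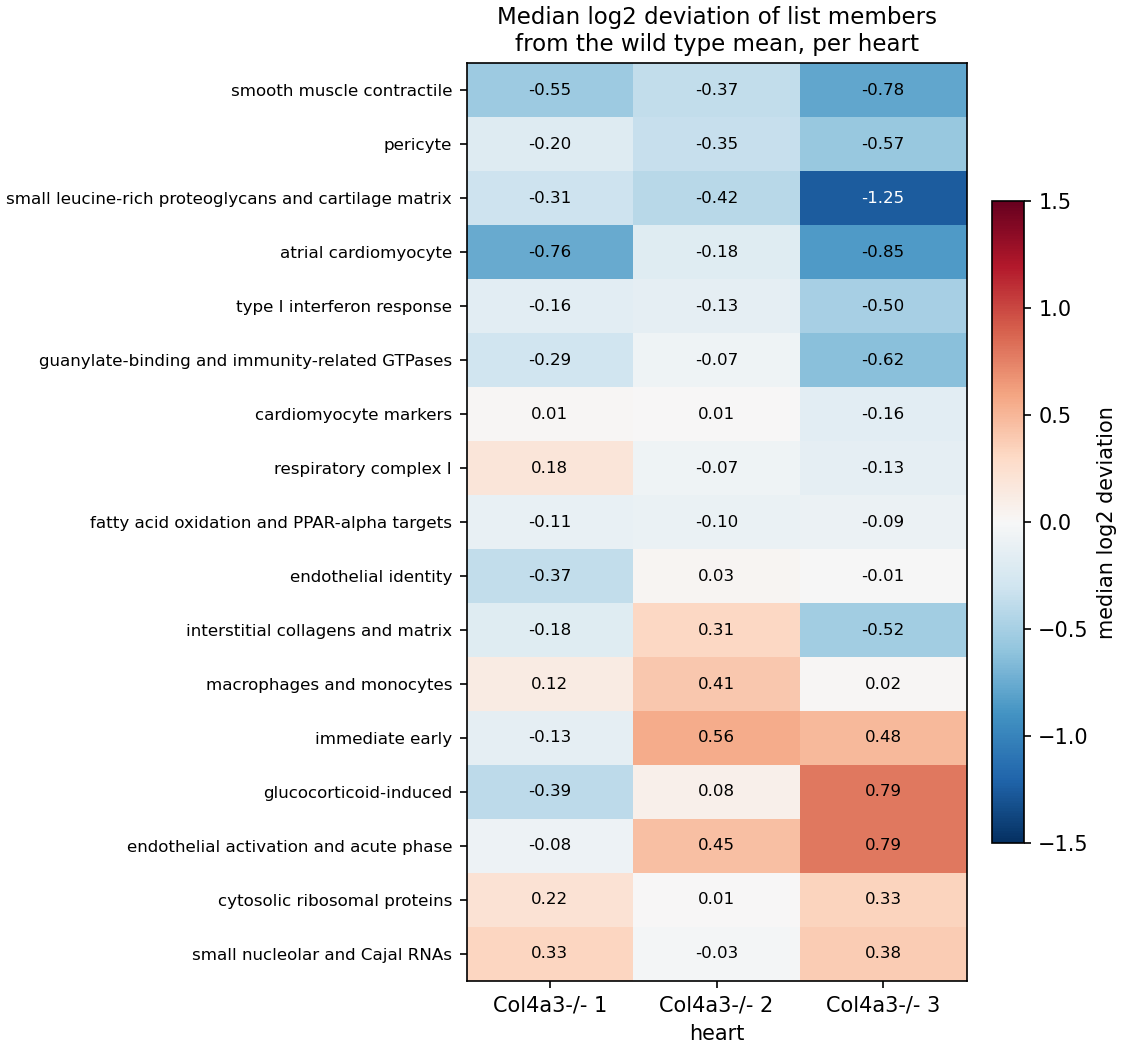
Median log2 deviation of the members of 15 gene lists and 2 RNA classes (1 line each) from the wild type mean in each Col4a3-/- heart (columns), with blue for lower and red for higher. Smooth muscle genes are negative in all 3 hearts at -0.55, -0.37 and -0.78, and immediate early genes stand at -0.13, 0.56 and 0.48.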

How the data were processed

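The deposited values are log2 signals that the authors made by RMA, per the submitters' processing notes, which name no version. RNA came from snap frozen hearts, per the labels' protocols. Symbols were updated by gene identifier (GRCm38.p6). Of all probe sets, 1814 had several symbols and 8458 none. The 3246 of these above the median were tested apart, with 0 calls in limma and 267 at an unadjusted p under 0.05, 85 of them lower and 182 higher in Col4a3-/- hearts. Values of all 9 arrays entered 1 limma fit (limma 3.58.1, R 4.3.3, lmFit and eBayes with an intensity trend). P-values were two-sided and adjusted by Benjamini-Hochberg. Precision is limited by the number of arrays (median SE 0.15 log2 units). An exact permutation test of 3 against 3 cannot go below 0.1, so none was run. The fit was also run on simulated data with a common SD for all genotypes. These lack the larger spread of the Col4a3-/- hearts and so cannot check the p-values under it.

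In lists, the probe set with the highest mean stood for a gene. Named were the 15 tested probe sets with the smallest p in each direction, the 10 largest differences without overlap in each direction, the 4 smallest p and all members without overlap of each list, cell type markers, type IV collagen chains, sex-linked genes and the 4 largest gaps of each heart that stands apart, as far as they served the description. Others were chosen after their values were seen. Members, lists and classes were chosen with earlier results of these data known. Alternatives were other scalings, filters and moderation, array weights, the 6 arrays alone, the replicate number as a block, a Y-linked covariate, only hearts with Y-linked signal, and each array left out. The list counts with single hearts left out, and the count of small nucleolar RNAs by gene, were chosen after seeing the data.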

Additional observations from a re-analysis of the deposited data

How the results depend on the processing

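The count of called probe sets was 0 in limma with 1140 at an unadjusted p under 0.05. It was 1, Myh11, with each array centred on its median, with a stricter filter, without the intensity trend and with robust moderation. It was 1, Bpifa1, with a Y-linked covariate, and 31 with only the hearts that had Y-linked signal, where 1 Col4a3-/- heart stood against 3 wild type hearts and was assumed to vary like the others. Of these 31, 30 were higher, led by airway and fat genes. Leaving out 1 array gave 0 to 6 calls: Rps13 without the first wild type heart, Myh11, Cdo1, Kcnj8 and Junb without the first Col4a3-/- heart, and the 6 named above without the second. The 1140 became 715 with the Y-linked covariate and 673 to 2078 with 1 array left out, the highest without the first Col4a3-/- heart. The replicate block gave 0 calls and 1181 at an unadjusted p under 0.05. Same-numbered hearts correlated at 0.03, -0.19 and 0.06 in their deviations, so the numbers do not pair the hearts. None of the 40 leading probe sets, of 39 genes, changed direction under the 19 or 20 alternatives in which each was tested. They were chosen from these same data and all lacked overlap between groups. Leaving out hearts therefore could not reverse them, and a change of moderation leaves the group means as they are. The median of all differences stayed between -0.05 and 0.003, and the share of lower ones among those at p under 0.05 was 71.4%, 63.5% after renewed quantile normalization and 79.9% after centring, 55.7% without the signal filter, 57.5% with the Y-linked covariate and 57.0% with only the hearts with Y-linked signal. Probe sets near the signal limit carry little above background, and 3 hearts a group limit all values.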
